A study of Mus musculus with 10 samples.

Results

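Amino acid transporters are the membrane proteins through which the liver takes up and releases amino acids. They were described here as the genes whose symbol begins with Slc1a, Slc3a, Slc7a, Slc36a, Slc38a or Slc43a followed by a digit. This rule took 43 of the 23420 gene rows counted by RNA-seq. It takes 7 genes of the Slc1 family, 2 of Slc3, 16 of Slc7, 4 of Slc36, 11 of Slc38 and 3 of Slc43. The 10 libraries came from the livers of male C57BL/6 mice aged 4 months: 5 mice starved for 48 hours with water freely available, and 5 mice given standard chow over the same 48 hours. The series asks how the metabolic state acts on genes through histone lysine β-hydroxybutyrylation. The protocol speaks of 5 pairs of mice without saying what forms a pair, and no mouse carried an altered gene. All libraries are of whole liver, so fewer cells of a type and less RNA per cell cannot be told apart.

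The hepatocyte imports amino acids from portal blood for protein synthesis, and in fasting also as carbon for glucose and nitrogen for urea. Sodium-coupled carriers such as those of the Slc38 family concentrate neutral amino acids in the cell. Slc7 proteins carry cationic amino acids on their own or, as light chains bound to an Slc3 heavy chain, exchange neutral, cationic or acidic ones across the membrane. Some Slc36 and Slc38 proteins sit in the lysosome, where they release amino acids from degraded protein and take part in the amino acid sensing of mTORC1, the growth-promoting kinase complex. The symbol rule also takes Slc43a3, known as a purine nucleobase transporter, and Slc7a6os, a protein-coding neighbour of Slc7a6 that is related to a yeast factor for the nuclear import of RNA polymerase II and is no transporter.

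Gene rows held 18.2 to 28.1 M reads per starved library and 23.0 to 29.9 M per fed library. Starved libraries 2 and 4 stood apart from the others. Across tested genes, Spearman's rho with other starved libraries was 0.936 to 0.967 for library 2 and 0.967 to 0.977 for library 4. It was 0.988 to 0.994 among starved libraries 1, 3 and 5 and 0.989 to 0.994 among fed libraries. Many results below are therefore also given without these libraries. Where no such value stands beside a result, it may still depend on them. The 5 hepatocyte markers with a row summed to 107346 to 168727 CPM in starved and 83620 to 125110 CPM in fed libraries, CPM being read counts relative to a library's total, with edgeR's TMM scaling factors applied.

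Enough reads for a test were found for 28 of the 43 members. In starved liver 8 of these 28 rose and 8 fell, and 12 were not called. The calls rest on the quasi-likelihood test of edgeR, with p-values adjusted by the Benjamini-Hochberg method across 12796 genes and a limit of 0.05. Among all tested genes 18.6% were called higher and 20% lower in starved liver. In 5 members every starved library was above every fed library, as in 13.2% of all tested genes, and in 5 every starved library was below, as in 16.7%. The median log2 fold change with all libraries was 0.06 over the tested members and 0.00 over all tested genes, and the median absolute change 0.65 and 0.37. Leaving out starved libraries 2 and 4, 4 members rose and 8 fell, where 20.2% of all tested genes were higher and 20.7% lower. All 4 of these rises (Slc7a2, Slc43a1, Slc43a3 and Slc7a6os) and 7 of these falls were among the calls with all libraries. The nucleobase transporter Slc43a3 and Slc7a6os, which is no transporter, thus count among the 8 rises with all libraries as well. Also without these libraries, every starved library was above every fed library in 5 members (18.1% of all tested genes) and below in 7 (21.3%). The median of the members was then −0.06 and that of all tested genes 0.00, with median absolute changes of 0.47 and 0.31. With library totals alone as scaling, 4 members were called higher and 11 lower, and the median of all genes moved by −0.16 on the log2 scale.

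**Figure D1:**
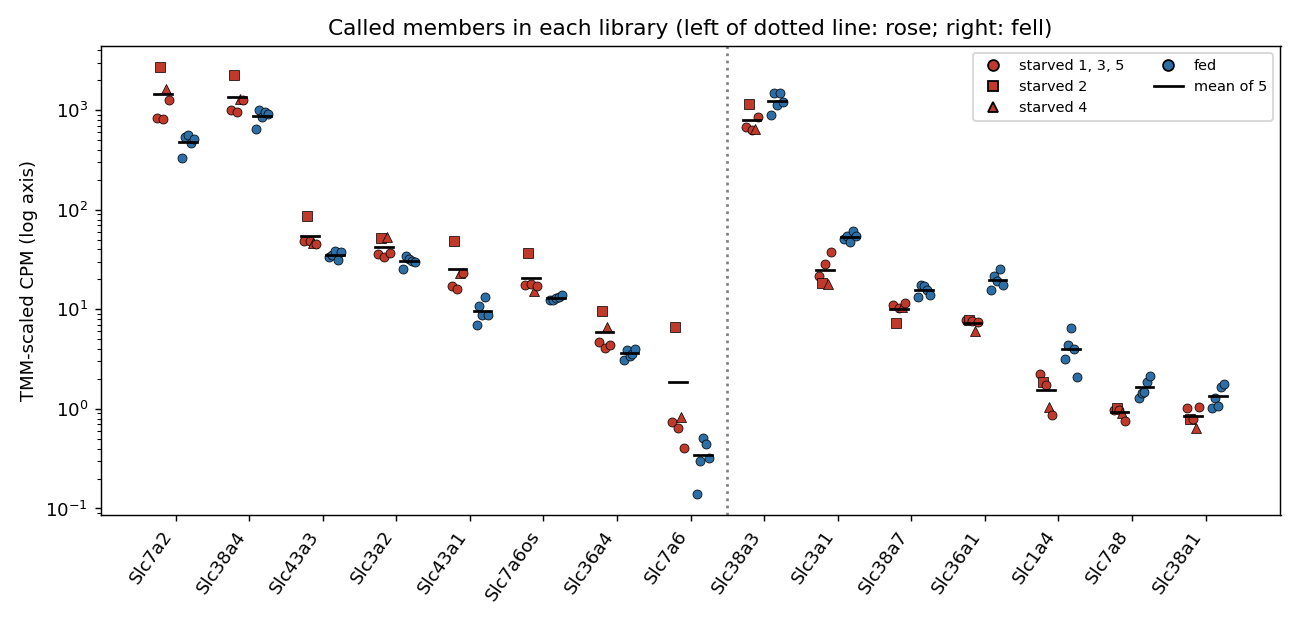
Level of each called member with a mean of at least 1 CPM in the higher group, in each of the 10 libraries, as TMM-scaled CPM on a log axis. Starved libraries are red (square, library 2; triangle, library 4), fed libraries blue, and black lines are means of 5. In most members that rose, the highest red symbol is the square of starved library 2. Starved and fed symbols are fully separate for Slc7a2, Slc43a1, Slc43a3, Slc7a6os, Slc36a4, Slc36a1, Slc3a1, Slc38a7 and Slc7a8.

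A small number of genes made up most of the transporter mRNA. Levels were divided by the kilobases of all merged annotated exons of a gene. This allows only a rough comparison between genes, since the transcripts present in liver may be shorter. Slc38a4 then stood first in starved liver at 319 ± 122 CPM per kb (SD, n = 5) and second in fed liver at 206.6 ± 33.3. Slc7a2 stood second at 159.6 ± 84.8 in starved liver and after Slc38a3 and Slc38a4 in fed liver, at 53.0 ± 10.3. Slc38a3 followed them in starved liver at 151 ± 42.6 and stood first in fed liver at 238 ± 48.1 CPM per kb. The spreads of Slc7a2 and Slc38a3 in starved liver overlap, as do those of Slc38a3 and Slc38a4 in fed liver. Below these genes the levels were much lower. The next member was Slc1a2 in starved liver, at 20.6 ± 2.82 CPM per kb (19.2 ± 2.22 in fed liver), and Slc3a1 in fed liver (11.0 ± 3.72 CPM per kb in starved and 23.7 ± 2.25 in fed liver).

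As a share of the summed CPM per kb of the 42 rows other than Slc7a6os, Slc7a2 held 17.3 to 25.6% in starved and 7.70 to 10.8% in fed libraries. Slc38a3 held 17.7 to 23.8% in starved and 37.3 to 42.9% in fed libraries. Slc38a4 held 42.6 to 45.1% in starved and 34.2 to 35.7% in fed libraries. The ranges of the starved and fed libraries did not overlap for any of these 3 shares. Shares of one sum depend on each other, so these are not 3 separate results. The CPM of Slc38a3 and of Slc38a4 overlapped between the groups, while that of Slc7a2 did not. The sum itself was 517 to 1169 CPM per kb in starved and 445 to 684 in fed libraries, and these ranges overlapped.

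**Figure D2:**
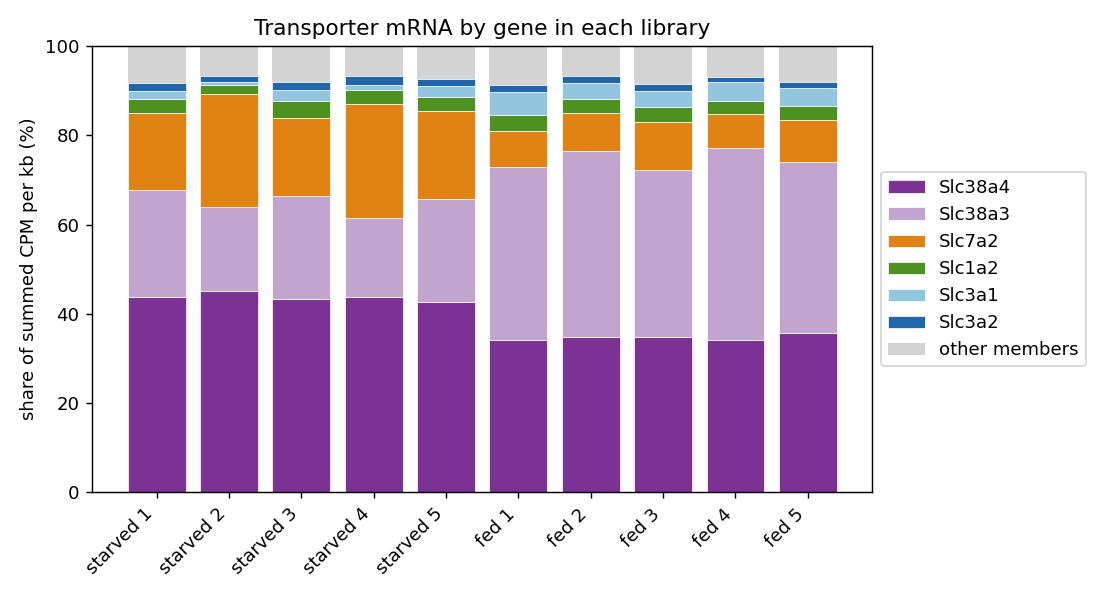
Share of each gene in the summed level of transporter mRNA (CPM per kilobase of exon, 42 rows) in every library, in percent. Slc38a3 takes 17.7 to 23.8% of the bar in the 5 starved libraries and 37.3 to 42.9% in the 5 fed libraries, with wider Slc7a2 and Slc38a4 segments in the starved libraries.

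Slc7a2 encodes CAT2, a sodium-independent carrier of arginine, lysine and ornithine that is abundant in liver. It was at 846, 2708, 826, 1636 and 1275 CPM in starved libraries 1 to 5, against 329.8, 543, 569, 466 and 514 CPM in fed libraries 1 to 5. Every starved library exceeded every fed library, with starved libraries 2 and 4 highest. It rose by a log2 fold change of 1.59 ± 0.31 (SE; adjusted p = 0.00234), and by 1.04 ± 0.18 without starved libraries 2 and 4 (adjusted p = 0.000858). The gene lies on chromosome 8 from 40862396 to 40922308 (mm10, plus strand). Its exons overlap those of Gm26584 on the opposite strand. The other cationic carriers were scarce. Slc7a1, or CAT1, the form used by most other tissues, had 1.01 ± 0.538 CPM in starved and 0.574 ± 0.0661 CPM in fed liver (0.79 ± 0.31, adjusted p = 0.0633) and was not called, except by DESeq2's Wald test (adjusted p = 0.0478) and without starved library 1 (0.0353) or 5 (0.0498). Its change was 0.27 ± 0.25 without starved libraries 2 and 4 (adjusted p = 0.445). Slc7a4 (0.392 ± 0.112 and 0.598 ± 0.244 CPM) and Slc7a14 (1.78 ± 0.694 and 1.25 ± 0.210 CPM in starved and fed liver), relatives of the cationic carriers, were not called either.

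Among the sodium-coupled neutral carriers, Slc38a3 was called lower and Slc38a4 higher with all libraries, the latter not without starved libraries 2 and 4. Slc38a3 encodes SNAT3, a system N carrier that moves glutamine, asparagine and histidine. Its levels were 673, 1165, 631, 655 and 857 CPM in starved libraries 1 to 5 and 908, 1504, 1140.1, 1500.4 and 1219 CPM in fed libraries 1 to 5. It fell by 0.66 ± 0.20 on the log2 scale (adjusted p = 0.023), and starved library 2 reached into the fed range. Without starved libraries 2 and 4 it fell by 0.78 ± 0.17 (adjusted p = 0.00378). Its call was lost when fed library 2 or 4 or starved library 3 or 4 was left out, with adjusted p of 0.051 to 0.0636.

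Slc38a4 encodes SNAT4, a system A carrier of neutral amino acids found mainly in liver. It stood at 1002, 2245, 956, 1302 and 1281 CPM in starved libraries 1 to 5, against 648.5, 1012, 857, 966 and 918 CPM in fed libraries 1 to 5. Starved libraries 2, 4 and 5 exceeded all fed libraries, and libraries 1 and 3 lay within the fed range. It rose by 0.62 ± 0.23 (adjusted p = 0.0473), but by 0.31 ± 0.15 without starved libraries 2 and 4, where it was not called (adjusted p = 0.118). The call was also lost with library totals alone, with limma-voom, when any 1 fed library was left out, and without starved library 2, 4 or 5 (adjusted p of 0.0562 to 0.106).

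The ratio of Slc38a4 to Slc38a3 reads within a library does not depend on scaling. It was 1.49, 1.93, 1.52, 1.99 and 1.49 in starved libraries 1 to 5, and 0.714, 0.673, 0.752, 0.644 and 0.753 in fed libraries 1 to 5. The 2 groups did not overlap in this ratio, and starved libraries 1, 3 and 5 stood close together. The ratios were chosen after the values were seen and were not tested.

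Slc38a2 encodes SNAT2, the system A carrier that cells are known to induce when amino acids run short. It was at 90.5, 225, 70.1, 111 and 141 CPM in starved libraries 1 to 5 and 62.4, 63.0, 86.6, 71.1 and 120.5 CPM in fed libraries 1 to 5, and was not called (0.66 ± 0.29, adjusted p = 0.0941), except when starved library 3, its lowest starved library, was left out (adjusted p = 0.0363). Slc38a1, the system A carrier best known from brain, was at 1.01, 0.801, 0.786, 0.650 and 1.04 CPM in starved libraries 1 to 5, against 1.02, 1.29, 1.07, 1.65 and 1.77 CPM in fed libraries 1 to 5. It fell by 0.67 ± 0.23 (adjusted p = 0.0349) with overlapping groups, and this call was lost without starved libraries 2 and 4 (−0.50 ± 0.26, adjusted p = 0.144), with a replicate block (adjusted p = 0.0718), with no low-count filter (0.0539) and in 6 of the 10 settings that left out a single library. Slc38a1, Slc38a2 and Slc38a4 lie near each other on chromosome 15, the first starting at 96571418 and the last ending at 97055956 (mm10, all on the minus strand). With all libraries these neighbours included a gene called lower, a gene not called and a gene called higher. The changes of Slc38a2 (0.66) and Slc38a4 (0.62) were nevertheless alike in sign and size. Without starved libraries 2 and 4, Slc38a1, Slc38a2 (adjusted p = 0.286) and Slc38a4 (0.118) were all not called. Slc38a6 (2.28 ± 0.374 and 2.19 ± 0.286 CPM in starved and fed liver) and Slc38a10 (74.9 ± 9.61 and 83.5 ± 11.2 CPM) were not called.

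**Figure D3:**
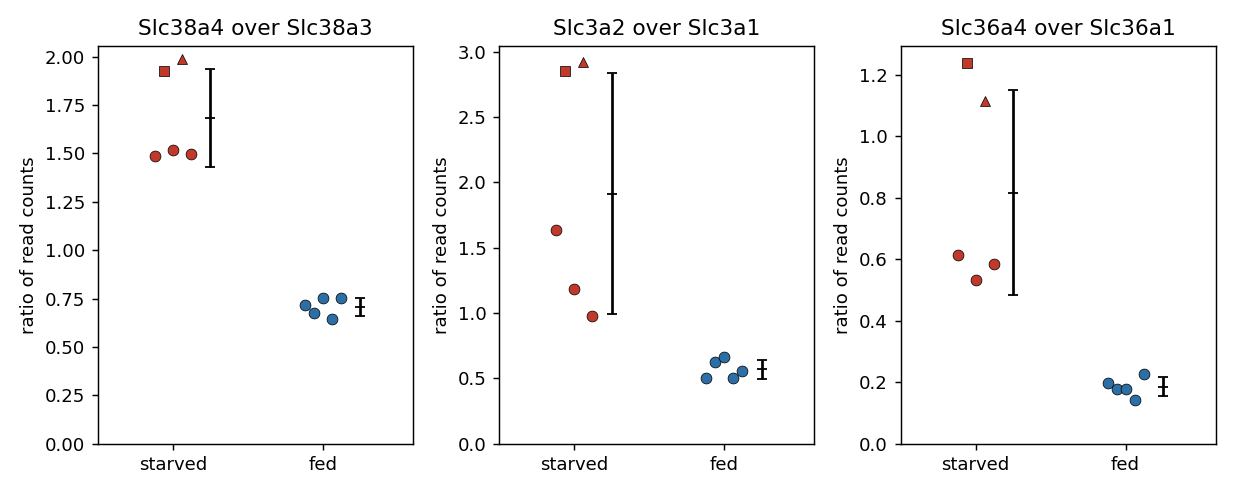
Read count ratios of Slc38a4 to Slc38a3, Slc3a2 to Slc3a1 and Slc36a4 to Slc36a1 within each library, starved (red; square, library 2; triangle, library 4) and fed (blue), with mean and SD of 5 beside the points. All 5 starved ratios lie above all 5 fed ratios in each panel, from 1.49 to 1.99 against 0.644 to 0.753 in the first.

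With all libraries both heavy chains were called, in opposite directions, but the rise of Slc3a2 was not called without starved libraries 2 and 4. Slc3a1 encodes rBAT, the heavy chain of the cystine and dibasic amino acid exchanger of kidney and gut. Its levels were 21.9, 18.3, 28.5, 18.1 and 38.1 CPM in starved libraries 1 to 5, against 51.1, 54.9, 47.7, 61.4 and 54.4 CPM in fed libraries 1 to 5. Every starved library was below every fed library, and Slc3a1 fell by 1.11 ± 0.20 on the log2 scale (adjusted p = 0.00126) and by 0.86 ± 0.15 without starved libraries 2 and 4. Exons of Slc3a1 overlap those of Prepl on the opposite strand. Prepl also fell, with 7.72 ± 2.11 CPM in starved and 12.4 ± 1.58 CPM in fed liver (−0.68 ± 0.19, adjusted p = 0.0159). No source used here gives the strand setting of the counting. The light chains that pair with rBAT, Slc7a9 and Slc7a13, did not pass the filter on low counts. Slc7a9 had at most 2 reads in a starved and 1 in a fed library, and Slc7a13 had 0 in all.

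Slc3a2 encodes 4F2hc (CD98), the heavy chain of most Slc7 exchangers. It was at 35.8, 52.1, 33.7, 52.9 and 37.2 CPM in starved libraries 1 to 5 and at 25.7, 34.1, 31.7, 30.9 and 30.3 CPM in fed libraries 1 to 5. Libraries 2 and 4 were highest, starved library 3 lay below the highest fed library, and Slc3a2 rose by 0.47 ± 0.15 (adjusted p = 0.0263). Without starved libraries 2 and 4 the change was 0.24 ± 0.09 and was not called (adjusted p = 0.059). The call was also lost with library totals alone and without fed library 1, 4 or 5 or starved library 4 (adjusted p of 0.0537 to 0.0904). The Slc3a2 to Slc3a1 read ratio was 0.977 to 2.92 in starved and 0.503 to 0.665 in fed libraries.

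The light chains that pair with 4F2hc were scarce in liver, all with means under 3 CPM. Slc7a8, or LAT2, an exchanger of neutral amino acids, was at 0.972, 1.01, 0.983, 0.903 and 0.753 CPM in starved libraries 1 to 5, against 1.30, 1.46, 1.47, 1.86 and 2.13 CPM in fed libraries 1 to 5. The groups did not overlap, and it fell by 0.82 ± 0.19 (adjusted p = 0.00609) and equally, by 0.82 ± 0.24, without starved libraries 2 and 4. Slc7a6, or y+LAT2, which exchanges arginine for neutral amino acids, was at 0.739, 6.62, 0.639, 0.831 and 0.405 CPM in starved libraries 1 to 5, against 0.140, 0.298, 0.515, 0.447 and 0.322 CPM in fed libraries 1 to 5. Starved library 2 alone was far above the rest. Its rise of 2.38 ± 0.78 (adjusted p = 0.0301) came down to 0.96 without starved library 2, where it was still called (adjusted p = 0.0389). Without starved libraries 2 and 4 it was 0.84 ± 0.39 and not called (adjusted p = 0.102). With all starved libraries kept, limma-voom (adjusted p = 0.0782), a replicate block (0.0617) and the fits without fed library 1, 2, 4 or 5 (0.0529 to 0.0685) did not call it. DESeq2's Wald test gave no adjusted p for Slc7a6, and the filter of 1 CPM in 5 libraries left it out. The neighbouring row Slc7a6os, at 17.4, 36.5, 17.9, 15.3 and 17.4 CPM in starved libraries 1 to 5 and 12.4, 12.5, 13.0, 13.2 and 14.0 CPM in fed libraries 1 to 5, rose by 0.68 ± 0.22 (adjusted p = 0.0266). Without starved libraries 2 and 4 Slc7a6os rose by 0.45 ± 0.08, and its call was lost with library totals alone and without fed library 1, 2, 3 or 4 (adjusted p of 0.0512 to 0.057).

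Slc7a5, or LAT1, the exchanger of large neutral amino acids in growing cells, was at 1.56, 5.29, 1.57, 2.24 and 1.56 CPM in starved libraries 1 to 5 and 2.11, 2.52, 2.57, 2.20 and 2.09 CPM in fed libraries 1 to 5. With all libraries it was not called (0.08 ± 0.33, adjusted p = 0.866), but it fell without starved libraries 2 and 4 (−0.53 ± 0.17, adjusted p = 0.023). Starved libraries 1, 3 and 5 were all below the fed libraries and library 2 was above them. Slc7a7, or y+LAT1 (2.22 ± 0.550 and 2.91 ± 0.321 CPM in starved and fed liver), was not called except lower with library totals alone (adjusted p = 0.0441). Its exons overlap those of Oxa1l on the opposite strand, which rose (39.1 ± 2.36 and 29.1 ± 2.80 CPM in starved and fed liver, log2 fold change 0.43 ± 0.10). Slc7a11, the cystine importer xCT, had 1 to 6 reads per starved and 1 to 7 per fed library, and Slc7a10 had 2 to 3 and 5 to 8.

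Slc43a1 encodes LAT3, a sodium-independent carrier of branched-chain amino acids and phenylalanine. Its levels were 17.1, 49.1, 16.0, 23.1 and 23.1 CPM in starved libraries 1 to 5, against 7.02, 10.9, 8.79, 13.2 and 8.77 CPM in fed libraries 1 to 5. All starved libraries exceeded all fed libraries, and Slc43a1 rose by 1.40 ± 0.30 (adjusted p = 0.00374) and by 0.96 ± 0.18 without starved libraries 2 and 4 (adjusted p = 0.00131). Slc43a2, or LAT4, with the same kind of substrates, was at 8.97 ± 0.977 CPM in starved and 11.2 ± 1.03 CPM in fed liver and was not called (−0.32 ± 0.12, adjusted p = 0.0531). DESeq2's Wald test (adjusted p = 0.0433), library totals alone (0.0195), the filter of 1 CPM in 5 libraries (0.0477) and the fit without starved library 3 (0.0448) called it lower. Slc43a3, the nucleobase transporter that lies beside Slc43a1 on chromosome 2, was at 48.8, 86.8, 48.3, 45.9 and 45.5 CPM in starved libraries 1 to 5 and 34.0, 35.6, 38.3, 31.4 and 37.4 CPM in fed libraries 1 to 5. The groups did not overlap, and it rose by 0.64 ± 0.18 (adjusted p = 0.0143) and by 0.45 ± 0.09 without starved libraries 2 and 4.

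Slc36a1 and Slc38a7, which both act at the lysosome, fell, with every starved library below every fed library. Slc36a1 encodes PAT1, a proton-coupled carrier of glycine, alanine and proline that acts at the lysosome and the plasma membrane. It was at 7.74, 7.80, 7.67, 6.03 and 7.53 CPM in starved libraries 1 to 5, against 15.8, 21.8, 19.1, 25.3 and 17.7 CPM in fed libraries 1 to 5. The starved libraries varied little and lay far below the fed range. Its fall of 1.44 ± 0.14 on the log2 scale had the lowest adjusted p of the members (5.14e-05) and was 1.36 ± 0.15 without starved libraries 2 and 4 (adjusted p = 2.97e-05). Slc38a7, or SNAT7, the lysosomal exporter of glutamine and asparagine, was at 11.0, 7.37, 10.3, 10.5 and 11.5 CPM in starved libraries 1 to 5 and 13.3, 17.8, 17.3, 15.6 and 13.8 CPM in fed libraries 1 to 5. Its groups did not overlap, and it fell by 0.62 ± 0.14 (adjusted p = 0.00567) and by 0.49 ± 0.12 without starved libraries 2 and 4. Slc38a9, the lysosomal arginine sensor upstream of mTORC1, was at 7.49 ± 1.41 CPM in starved and 8.82 ± 0.610 CPM in fed liver and was not called (−0.23 ± 0.14, adjusted p = 0.217).

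Slc36a4, or PAT4, a carrier of proline and tryptophan, was at 4.74, 9.67, 4.08, 6.72 and 4.40 CPM in starved libraries 1 to 5, against 3.12, 3.91, 3.42, 3.58 and 4.02 CPM in fed libraries 1 to 5. The groups did not overlap, but starved libraries 1, 3 and 5 were close to the fed range. It rose by 0.71 ± 0.23 (adjusted p = 0.029), and by 0.31 ± 0.14 without starved libraries 2 and 4, which was not called (adjusted p = 0.0891). The call was also lost with library totals alone and without fed library 1, 3 or 4 or starved library 4 (adjusted p of 0.0583 to 0.0672). The read ratio of Slc36a4 to Slc36a1 was 0.532 to 1.24 in starved and 0.141 to 0.227 in fed libraries.

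Promoter windows from RefSeq (GRCm38.p6, the same build as mm10), which run from 250 bases before to 50 after an annotated start, were found for 32 of the 43 members. No window was found for the called members Slc7a2, Slc43a3, Slc38a1 and Slc38a3, so the matches below do not cover them. The E-box CACGTG, which is bound by lysosomal, circadian and growth-related factors and reads the same on both strands, was present in windows of 7 of these 32 members. It was present in 7.15% of all 32851 windows and in 8.09% of the 27025 genes with a window. Among members that fell it was in 2 of 6 with a window, Slc36a1 and Slc38a7, and among those that rose in 1 of 6, Slc43a1. The other members with a match were Slc7a14, which was not called, and Slc1a6, Slc1a7 and Slc38a5, which did not pass the low-count filter. A match is a run of letters and not a shown binding site. The windows of these 3 called members are printed 5′ to 3′ with the E-box in capitals. They are Slc36a1 on chr11:55204090-55204389 (plus strand), Slc38a7 on chr8:95853442-95853741 (minus strand) and Slc43a1 on chr2:84840073-84840372 (plus strand).
Slc36a1: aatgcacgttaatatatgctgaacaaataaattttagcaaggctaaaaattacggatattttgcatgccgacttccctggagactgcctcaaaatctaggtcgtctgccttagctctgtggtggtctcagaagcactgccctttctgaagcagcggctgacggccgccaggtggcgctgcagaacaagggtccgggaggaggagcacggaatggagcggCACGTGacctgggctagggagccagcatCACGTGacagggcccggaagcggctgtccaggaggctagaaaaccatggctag
Slc38a7: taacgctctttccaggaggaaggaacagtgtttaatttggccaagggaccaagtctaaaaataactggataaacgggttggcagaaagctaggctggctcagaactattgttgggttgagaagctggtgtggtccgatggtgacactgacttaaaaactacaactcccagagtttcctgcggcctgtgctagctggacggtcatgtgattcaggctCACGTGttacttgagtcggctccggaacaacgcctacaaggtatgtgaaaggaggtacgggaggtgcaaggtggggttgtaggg
Slc43a1: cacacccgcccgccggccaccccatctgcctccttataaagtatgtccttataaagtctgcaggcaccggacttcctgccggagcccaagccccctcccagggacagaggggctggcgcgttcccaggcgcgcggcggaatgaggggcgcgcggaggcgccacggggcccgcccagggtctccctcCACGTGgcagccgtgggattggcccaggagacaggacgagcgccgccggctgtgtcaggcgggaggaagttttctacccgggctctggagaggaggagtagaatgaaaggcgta
Slc36a1 holds 2 copies and the others 1. The C/EBP-ATF response element, through which ATF4 acts in amino acid shortage, was searched as TGATGNAAT only. These letters were in windows of 0 of the 32 members and 1.08% of all genes. Variants that differ in the last base, such as the TGATGCAAA present on both strands of the Slc7a11 window, were not counted. The cAMP response element TGACGTCA (2.03% of all genes) was in Slc38a6, and the FOXO site GTAAACA (4.05%) in Slc36a3 and Slc7a11, of which Slc38a6 was not called and the others did not pass the filter. Both strands were searched, and no matches of different motifs overlapped in these members.

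The Slc1 family of glutamate and neutral amino acid carriers had 4 of 7 members tested. Slc1a2, or GLT-1, the glutamate transporter of hepatocytes around the central vein, was the most abundant and was not called. It had 270.4 ± 37.0 CPM in starved and 252 ± 29.1 CPM in fed liver (0.10 ± 0.13, adjusted p = 0.551), and the sign turned with library totals alone. Slc1a4, or ASCT1, a sodium-dependent carrier of alanine, serine, cysteine and threonine, was at 2.26, 1.87, 1.72, 1.05 and 0.869 CPM in starved libraries 1 to 5 and 3.16, 4.41, 6.47, 3.96 and 2.09 CPM in fed libraries 1 to 5. It fell by 1.36 ± 0.32 (adjusted p = 0.00672), with starved library 1 just above fed library 5, and by 1.25 ± 0.36 without starved libraries 2 and 4. Slc1a3, or GLAST, a glutamate transporter, fell at a low level, 0.267 ± 0.199 CPM in starved and 0.785 ± 0.136 CPM in fed liver (−1.51 ± 0.39, adjusted p = 0.00982). Without starved libraries 2 and 4 Slc1a3 changed by −1.09 ± 0.39 (adjusted p = 0.0408). Slc1a5, or ASCT2, which exchanges glutamine for other neutral amino acids, was not called (2.38 ± 0.619 CPM in starved and 1.79 ± 0.489 CPM in fed liver).

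**Figure D4:**
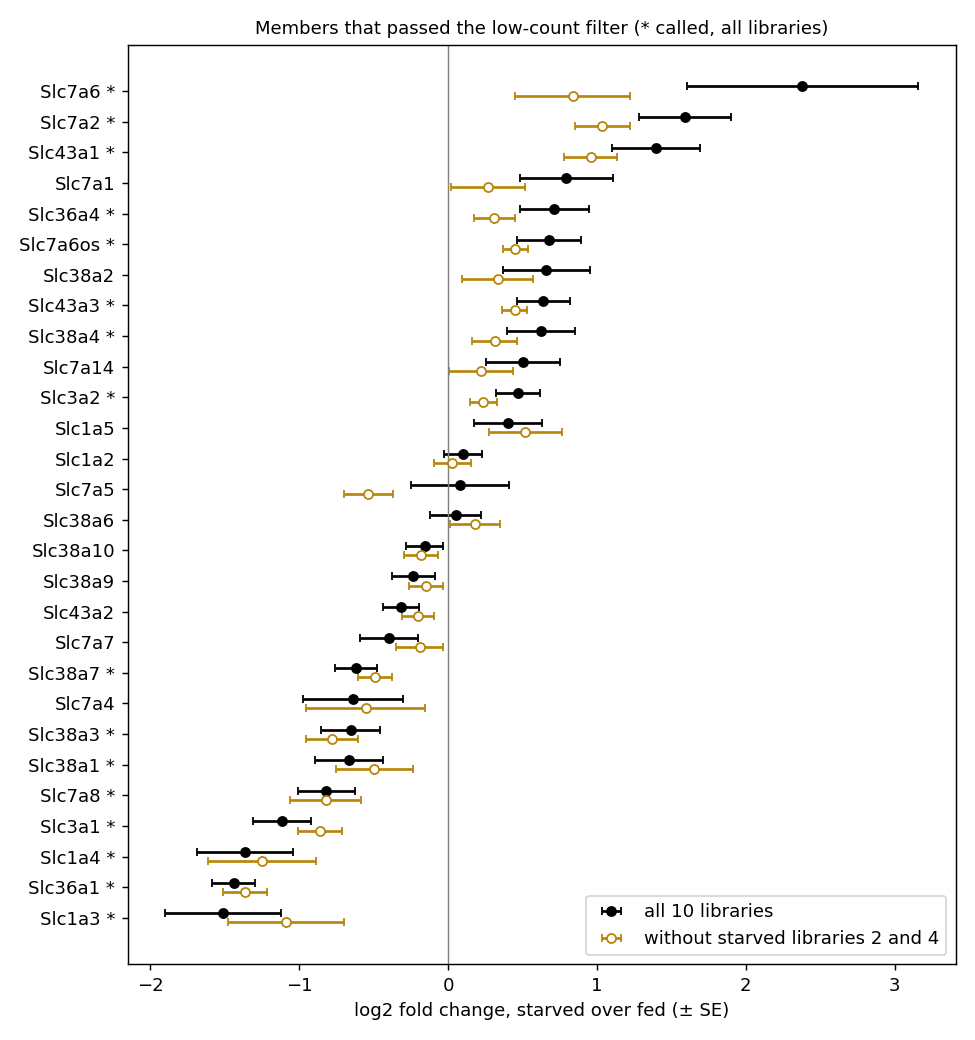
Log2 fold change of starved over fed liver with its SE for the 28 members that passed the low-count filter, with all 10 libraries (black) and without starved libraries 2 and 4 (open symbols). Asterisks mark the 16 members called with all libraries. Slc36a1 stays near −1.4 in both, while Slc7a6 moves from 2.38 with all libraries to 0.84 and Slc7a5 from 0.08 to −0.53 without libraries 2 and 4.

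Starved library 2 was the highest starved library in 7 of the 8 members that rose, and library 4 in Slc3a2. Among all genes called higher, library 2 was the highest in 54.5%. Among the 8 members that fell, library 2 was the lowest in 1 and library 4 in 3, and among all genes called lower in 48.1% and 32.4%.

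The remaining 15 members did not pass the filter. Of these, Slc7a13, Slc36a3 and Slc38a8 had 0 reads in all 10 libraries. There 3 reads, the limit that a count of 0 allows, equal at most 0.165 CPM by library total, without the TMM factors. The other 12 (Slc1a1, Slc1a6, Slc1a7, Slc7a3, Slc7a9, Slc7a10, Slc7a11, Slc7a12, Slc7a15, Slc36a2, Slc38a5 and Slc38a11) had 6 to 47 reads over the 10 libraries together and at most 14 in a library. Slc7a12 had 9 reads, all in starved library 1.

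Markers of other liver cells differed between the groups as well. Their counts stand beside 18.6% of all tested genes called higher and 20% called lower. Of 7 Kupffer cell and macrophage markers 6 fell and 0 rose, with a summed level of 138 to 296 CPM in starved and 362 to 586 CPM in fed libraries and no marker at 0. Of 4 tested lymphocyte markers 2 fell and 0 rose, with a summed level of 8.27 to 14.1 CPM in starved and 18.2 to 27.1 CPM in fed libraries. Of 6 endothelial markers 3 fell and 1 rose, and of 7 stellate cell and fibroblast markers 2 fell and 1 rose, and the sums of these lists overlapped between the groups. All 3 tested neutrophil markers rose, with a summed level of 2.78 to 22.2 CPM in starved libraries (19.1 and 22.2 in libraries 2 and 4) and 1.82 to 3.65 CPM in fed libraries. Of 5 tested cholangiocyte markers 1 fell and 0 rose, but their summed level of 15.1 to 40.7 CPM in starved libraries (16.3 and 15.1 in libraries 2 and 4) lay below the 46.4 to 57.5 CPM of fed libraries. The same held for the sum of the pancreas acinar markers, of which 1 of 4 tested fell and 0 rose (9.21 to 14.0 CPM in starved and 20.7 to 30.4 CPM in fed libraries). The adipocyte list had 1 tested marker, which was not called. Without starved libraries 2 and 4, 1 lymphocyte, 4 endothelial and 3 stellate cell and fibroblast markers fell, and 1 cholangiocyte marker rose. Both tested erythroid markers fell (summed level 8.38 to 25.6 CPM in starved and 27.5 to 46.3 CPM in fed libraries). The rows Hba-a1, Hba-a2 and Hbb-b1 were at 0 in all libraries. Reads that did not align uniquely are in no gene row, so a count of 0 does not show that these mRNAs were absent. The part of these cells in the changes of members at low levels, such as Slc1a3, Slc1a4, Slc7a6, Slc7a8 and Slc36a1, was not tested.

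Other genes of amino acid transport and use were read from lists. The counts of all these lists stand beside 18.6% of all tested genes called higher and 20% called lower. Without starved libraries 2 and 4 these shares were 20.2% and 20.7%. Of 9 tested amino acid transporters of other families, 2 rose and 4 fell, with a median log2 fold change of −0.16. With starved libraries 2 and 4 left out, 3 of 10 tested rose and 4 fell, with a median of −0.007. The added rise was Slc6a18, a neutral amino acid transporter of the kidney (1.49 ± 0.39, adjusted p = 0.00892), which passed the low-count filter only there and had 35 reads in starved library 1 and 7 to 13 in the other 4 starved libraries, against 6 to 10 in fed libraries. Slc16a10, or TAT1, which releases aromatic amino acids, rose (322 ± 136 CPM in starved and 139.9 ± 18.3 CPM in fed liver, 1.20 ± 0.25, and 0.73 without starved libraries 2 and 4). Pqlc2, a lysosomal exporter of cationic amino acids, also rose (14.7 ± 4.19 and 7.47 ± 2.01 CPM, 0.98 ± 0.22). Slc6a13, a GABA and taurine transporter (−0.81 ± 0.14), Slc6a9, a glycine transporter (−0.50 ± 0.13), and Ctns, the lysosomal cystine exporter (−0.47 ± 0.13), fell.

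Of 7 tested mitochondrial amino acid carriers 4 rose and 1 fell, with a median of 0.85. Without starved libraries 2 and 4, 3 rose and 1 fell, with a median of 0.53. Slc25a15, the ornithine carrier of the urea cycle, rose (984 ± 150 CPM in starved and 404 ± 7.94 CPM in fed liver, 1.28 ± 0.12), as did Slc25a22, a glutamate carrier (1.26 ± 0.25), and Slc25a29, a carrier of basic amino acids (1.44 ± 0.50, and 0.53 and not called without starved libraries 2 and 4). Slc25a44, the carrier of branched-chain amino acids, fell (−0.66 ± 0.21). Of 22 tested enzymes that use the transported amino acids 9 rose and 3 fell (median 0.34), and 10 and 3 without starved libraries 2 and 4 (median 0.22). The rises were led by Got1 (3.19 ± 0.47), Sdsl (2.52 ± 0.37) and Tat (2.38 ± 0.41), and by 2.13, 1.70 and 1.64 without starved libraries 2 and 4. Gclc and Gclm, the subunits of glutamate-cysteine ligase (−0.67 ± 0.12 and −0.55 ± 0.13), and Glud1, the glutamate dehydrogenase (−0.50 ± 0.13), fell.

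Of 26 tested genes in the list of amino acid sensing upstream of mTORC1, 6 rose and 6 fell (median −0.06). Both counts are near the shares of all tested genes called higher (18.6%) and lower (20%). Without starved libraries 2 and 4, 6 rose and 7 fell (median −0.01). Sesn1, a sestrin (2.89 ± 0.80, and 0.57 without starved libraries 2 and 4), Sesn2, the leucine-binding sestrin (2.27 ± 0.61 and 0.93), and Mios, a subunit of the GATOR2 complex (0.88 ± 0.20 and 0.51), rose. Fnip2 and Flcn, partners in the folliculin complex (−1.70 ± 0.17 and −0.80 ± 0.14), and Rragd, a Rag GTPase (−0.63 ± 0.21, and −0.34 and not called without these libraries), fell. Of 20 tested genes of the integrated stress response 8 rose and 1 fell (median 0.23). These numbers were 4 and 2 of 21 when starved libraries 2 and 4 were left out. Trib3, a pseudokinase induced by ATF4, rose (18.9 ± 8.37 CPM in starved and 4.47 ± 1.36 CPM in fed liver, 2.07 ± 0.32), as did Cth, the cystathionine lyase that makes cysteine (1.82 ± 0.16). Atf3, a transcription factor of the stress response, rose by 3.11 ± 1.01, but by 0.52, not called, without these libraries. Eif2ak2, the kinase PKR, fell (−0.84 ± 0.19).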

How the data were processed

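Per the labels' protocols, total liver RNA went into a TruSeq Stranded library kit, so that strand was marked. The authors deposited whole-number read counts per gene symbol, 1 file per library, not normalised. Tools listed in the submitters' processing notes are HTSeq, TopHat2 2.0.0, Bowtie2 2.0.0, CASAVA 1.8.2 and edgeR 3.6.4, with build mm10. For HTSeq, the version, annotation and strand setting were not given in the sources used here. Reads in no gene row (58.2 to 68.8% of tallied reads in starved and 63.3 to 68.2% in fed libraries, mostly not uniquely aligned) stayed out of all totals. Their share was 58.2 and 60.0% in starved libraries 2 and 4, against 65.3, 68.8 and 66.1% in starved libraries 1, 3 and 5.

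Counts were analysed in R 4.3.3 with edgeR 4.0.16 (filterByExpr, TMM scaling, quasi-likelihood test, Benjamini-Hochberg adjustment, called under 0.05). SE is the log2 fold change divided by the root of the test's F statistic. Exon lengths are merged GENCODE M21 exons of the same build, and 98.4% of gene rows matched. Of the members, 10 overlap an exon of a gene on the opposite strand and are uncertain to that extent. They are Slc1a1, Slc1a2, Slc3a1, Slc7a2, Slc7a4, Slc7a7, Slc7a10, Slc38a9, Slc38a10 and Slc43a2. Alternatives were DESeq2 1.42.0, limma-voom (limma 3.58.1), other scalings and filters, a replicate block and left-out libraries.

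Members, lists, the alternative without starved libraries 2 and 4 and the rule for named genes were chosen with earlier results of these data known. Called members whose higher group averages 1 CPM or more are given in every library, and of each other list up to 3 called genes in each direction with the largest change. The ratios within libraries and the motifs were chosen after the values were seen. P-values measure the spread between mice of this series.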

Additional observations from a re-analysis of the deposited data

Results flagged for a closer look

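Among the 28 tested members in 2 groups of 5, 56 groups of values were examined for a library far from the others, and 9 had a gap of more than 0.71 of the group's range, where about 1 in 20 groups, or 2.8, would be flagged by chance. All 9 were in starved libraries. Starved library 2 was far above the others for Slc7a6 (6.62 CPM, the others 0.405 to 0.831), Slc43a3 (86.8 CPM, 45.5 to 48.8), Slc7a6os (36.5 CPM, 15.3 to 17.9) and Slc7a5 (5.29 CPM, 1.56 to 2.24). The same held for Slc43a1 (49.1 CPM, 16.0 to 23.1), Slc7a14 (2.99 CPM, 1.32 to 1.68) and Slc38a4 (2245 CPM, 956 to 1302). Starved library 4 was below the others for Slc36a1 (6.03 CPM, 7.53 to 7.80) and Slc38a6 (1.63 CPM, 2.31 to 2.55).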

How the results depend on the processing

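The number of members called lower, 8 with all libraries, stayed between 6 and 11 in all settings. The number called higher, 8 with all libraries, was 4 with library totals alone and 4 without starved libraries 2 and 4, and 3 to 9 when a library was left out, lowest (3) with fed library 1 or 4 left out, and 5 with fed library 2, 3 or 5 or starved library 4 left out. Over all genes, 2379 were called higher, and 1490 with library totals alone, beside 2555 and 3489 called lower. Members that were not called with all libraries changed sign: Slc1a2 with library totals alone (−0.060), Slc38a6 with library totals alone (−0.11) and without fed library 4 (−0.0097, the other left-out libraries giving up to 0.18), and Slc7a5 with library totals alone (−0.11), limma-voom (−0.10), a replicate block (−0.065), without starved library 2 (−0.38, the others giving up to 0.21) and without starved libraries 2 and 4 (−0.53). Same-numbered starved and fed libraries correlated at −0.045 to 0.198 in their deviations, 1 of 5 pairs above 0.1, so the numbers were not taken to pair the mice, and a replicate block left 7 members higher and 7 lower. Members under about 1 CPM rest on few reads.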
